A study of Mus musculus with 15 samples.

Results

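The genes described here are the matrix metalloproteinases (Mmp), the ADAMTS proteases, the ADAMTS-like proteins (Adamtsl) and the tissue inhibitors of metalloproteinases (Timp). Members were the array features annotated to exactly 1 gene symbol of these families, and of several features for a gene the one with the highest mean over the 15 arrays was kept. This gave 47 genes out of 18718 tested: 20 Mmp, 18 Adamts, 5 Adamtsl and 4 Timp genes. Genes entered by name and not by a measured value, but the feature kept for a gene was chosen by its mean signal. The families were picked with earlier results of these data known.

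RNA of mesenchymal cells from 2-week-old C57BL/6 mice was read on Affymetrix Mouse Gene 1.1 ST arrays. Cells positive for PDGFRβ, a receptor of mesenchymal cells, were sorted from digested thymus and from pooled inguinal, brachial and axillary lymph nodes. Podoplanin (PDPN), a surface glycoprotein of fibroblastic stroma, and BP3, the ectoenzyme encoded by Bst1, divided them into thymus PDPN+BP3- and PDPN- cells and lymph node PDPN+BP3-, PDPN+BP3+ and PDPN- cells. Both PDPN- populations were also positive for Ly51, the aminopeptidase encoded by Enpep. Each population had 3 arrays (n = 3), from 3 experiments with separate pools of mice. Thymus pools came from 3 mice and lymph node pools from 10 to 11, so tissue and pool size cannot be told apart. Tissue had been dissociated with liberase TM and DNase I, and the amount of RNA required whole-transcriptome amplification before labelling.

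Matrix metalloproteinases are zinc enzymes that are made as inactive proenzymes and cleave collagens, gelatin, proteoglycans and cell surface proteins. ADAMTS enzymes are secreted metalloproteinases with thrombospondin repeats; their groups cleave proteoglycans such as aggrecan and versican, trim procollagens, or act on fibrillin microfibrils, and ADAMTS-like proteins share the repeats but lack the protease domain. TIMPs bind the active sites of these enzymes and block them. In lymphoid organs, the stroma that makes these proteins also builds the conduits and vessel walls along which lymphocytes travel.

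Values are log2 RMA signals, where RMA is a method that corrects, scales and summarises the probes of a feature. The whole table ran from 1.07 to 12.07 with a median of 3.8, and 25% of values were below 2.33. No measure of background was used here, so a low signal is given as a low signal and not as absence of RNA. Signals of different genes come from different probes, and levels are compared only within a gene. Differences are given as log2 differences ± standard error from a linear model in limma over all 15 arrays, with p-values adjusted by the Benjamini-Hochberg method over 18718 genes, and a gene was called at an adjusted p under 0.05. In sorted bulk cells, fewer cells of a type and less RNA per cell cannot be told apart.

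The sort genes followed the labels: mean Pdpn signals were 8.16 to 9.11 in the PDPN+ populations and 3.01 to 3.41 in the PDPN- populations, and Bst1 averaged 8.74 in PDPN+BP3+ cells against 2.18 to 3.30 elsewhere. Enpep averaged 8.07 and 7.69 in the thymus and lymph node PDPN- cells against 3.74 to 4.61 elsewhere, and Pdgfrb averaged 8.94 to 10.61 in all populations. Array medians were 3.77 to 3.885 except for thymus PDPN+BP3- replicate 1, at 3.58. Some transcripts of other cells moved with the populations. The mean of 7 T lineage genes was 3.34 to 4.89 on thymus PDPN+BP3- arrays, 4.91 to 5.54 on thymus PDPN- arrays and 2.56 to 2.81 on lymph node arrays. The mean of 4 neutrophil genes was 3.88 to 4.68 on lymph node PDPN+BP3- arrays and 2.32 to 3.91 on the others, and that of 5 endothelial genes was 4.12 to 4.64 against 3.07 to 3.83. The mean of 5 epithelial genes was 4.18 to 4.60 on thymus PDPN- arrays, 3.33 to 4.16 on thymus PDPN+BP3- arrays and 2.85 to 3.08 on lymph node arrays. Mesenchymal lists also differed between the populations. The mean of 7 pericyte and smooth muscle genes was 9.36 to 9.94 on PDPN- arrays and 5.69 to 7.10 on the others. That of 4 adventitial fibroblast genes was 2.97 to 3.48 on PDPN- arrays, 7.22 to 9.34 on PDPN+BP3- arrays and 4.26 to 4.45 on PDPN+BP3+ arrays. Among these 4, Pdgfra averaged 8.67 in PDPN+BP3+ cells. Pi16, Cd34 and Dpp4 averaged 2.17 to 3.77 there and 2.25 to 4.44 in the PDPN- populations. The part of these transcripts in the results below was not tested.

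Promoter sequences are shown first for the members whose signals set the main patterns: the stromelysin Mmp3 with 2 of its low neighbours, and the activation partners Mmp14 and Timp2. In RefSeq (GRCm38.p6), Mmp13, Mmp12, Mmp1b, Mmp3, Mmp1a, Mmp10, Mmp8, Mmp20 and Mmp7 form 1 cluster on chromosome 9, with Mmp27 as the only other protein-coding gene among them. Each window runs from 250 bases before to 50 bases after the RefSeq start, 5′ to 3′ on the strand of the gene. Capitals mark exact matches, on either strand, to the letters of an AP-1 site, a TATA box or a GC box, and no match overlaps another in these windows.
Mmp3, chr9:7445572-7445871, plus strand: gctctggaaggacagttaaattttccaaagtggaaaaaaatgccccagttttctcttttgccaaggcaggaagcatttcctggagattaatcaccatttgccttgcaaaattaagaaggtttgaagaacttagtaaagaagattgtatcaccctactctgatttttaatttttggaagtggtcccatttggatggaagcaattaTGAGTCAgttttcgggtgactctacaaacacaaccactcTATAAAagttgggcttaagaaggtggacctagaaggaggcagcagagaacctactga
Mmp10, chr9:7502092-7502391, plus strand: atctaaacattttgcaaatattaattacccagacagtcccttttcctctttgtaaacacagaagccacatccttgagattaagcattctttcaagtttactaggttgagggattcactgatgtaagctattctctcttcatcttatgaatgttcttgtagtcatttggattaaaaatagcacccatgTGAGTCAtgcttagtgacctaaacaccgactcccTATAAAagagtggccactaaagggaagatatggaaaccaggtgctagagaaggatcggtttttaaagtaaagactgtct
Mmp13, chr9:7272264-7272563, plus strand: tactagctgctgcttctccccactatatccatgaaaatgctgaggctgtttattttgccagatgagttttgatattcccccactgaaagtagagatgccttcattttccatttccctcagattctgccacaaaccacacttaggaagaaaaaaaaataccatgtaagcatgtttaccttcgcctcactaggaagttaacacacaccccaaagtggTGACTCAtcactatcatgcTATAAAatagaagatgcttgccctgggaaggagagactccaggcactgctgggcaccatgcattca
Mmp14, chr14:54431348-54431647, plus strand: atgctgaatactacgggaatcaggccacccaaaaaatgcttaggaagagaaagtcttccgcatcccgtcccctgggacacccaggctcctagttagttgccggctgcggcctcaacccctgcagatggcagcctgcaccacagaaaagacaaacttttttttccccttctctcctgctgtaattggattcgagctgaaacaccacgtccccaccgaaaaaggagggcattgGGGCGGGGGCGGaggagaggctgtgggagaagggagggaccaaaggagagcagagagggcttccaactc
Timp2, chr11:118355362-118355661, minus strand: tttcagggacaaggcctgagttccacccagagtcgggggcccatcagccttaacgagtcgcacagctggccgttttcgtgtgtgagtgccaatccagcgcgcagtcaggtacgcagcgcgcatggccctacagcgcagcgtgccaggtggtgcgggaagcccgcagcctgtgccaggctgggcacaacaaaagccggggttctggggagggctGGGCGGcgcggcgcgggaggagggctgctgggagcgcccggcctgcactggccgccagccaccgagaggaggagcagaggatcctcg

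Of the 47 members, 32 had a promoter in the RefSeq table. Members were counted as genes, by a match in any of their promoters, whereas the shares over all are per promoter. The 32851 promoters belong to 27025 genes, so the units of these counts and shares differ. The AP-1 letters TGAGTCA were in 7 of these 32 members and in 5.2% of all 32851 promoters. The TATA box letters TATAAA were in 12 of 32 and in 13.6% of all, and the GC box letters GGGCGG in 19 of 32 and in 35.7% of all. All 9 genes of the cluster had a promoter in the table. Of these, 9 held the TATA letters and 7 the AP-1 letters, while of the 23 other members 3 held the TATA letters and 0 the AP-1 letters. The place of the TATA letters differed within the cluster. In Mmp8 they lay on the reverse strand across the start, in Mmp12 at positions 5 to 10 after it and in Mmp20 58 to 53 bases before it. AP-1 and TATA letters stood together in 0.941% of all promoters. In Mmp3 the AP-1 letters lay 46 to 40 bases before the start, in Mmp10 63 to 57 bases before it, and in Mmp13 35 to 29 bases before it on the reverse strand. The Mmp14 and Timp2 windows held GC boxes and neither of the other motifs: Mmp14 had a pair side by side, the first 19 to 14 bases before the start, and Timp2 had 1, 37 to 32 bases before it. Of 5 further motifs, the E-box CAGGTG was in 8 members (20.2% of all promoters), the RBPJ motif TGGGAA in 12 (25.6%), the TEAD motif GGAATG in 2 (14.7%), and the CRE TGACGTCA (1.79%) and the GAS TTCCCGGAA (0.35%) in 0. A match in these letters is a description of the sequence, not a binding site.

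The protease and inhibitor genes varied widely among the 5 populations. A moderated F test called 32 of 47 members, against 45.3% of all genes tested. Their highest mean lay in the PDPN+BP3- population of the thymus for 10 members, in lymph node PDPN+BP3- cells for 8, in lymph node PDPN+BP3+ cells for 6, in lymph node PDPN- cells for 5 and in thymus PDPN- cells for 3. The lowest mean lay in thymus PDPN- cells for 10 and in lymph node PDPN+BP3+ cells for 9. The same counts were not made over all genes, so they do not set the members apart from the rest. A population mean above the median of the table was reached by 32 of 47 members and by 57.0% of all genes tested. In the other 15 members no population reached it. These were the 4 collagenases, Mmp7, Mmp10, Mmp12, Mmp20, Mmp21, Mmp24, Mmp25, Adamts6, Adamts18, Adamts19 and Adamtsl2, with highest means of 1.72 to 3.01, and 2 of them, Adamts6 and Adamtsl2, passed the F test. Of the remaining 32 members, 30 passed it, and the exceptions were Mmp11 and Adamts7.

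**Figure D1:**
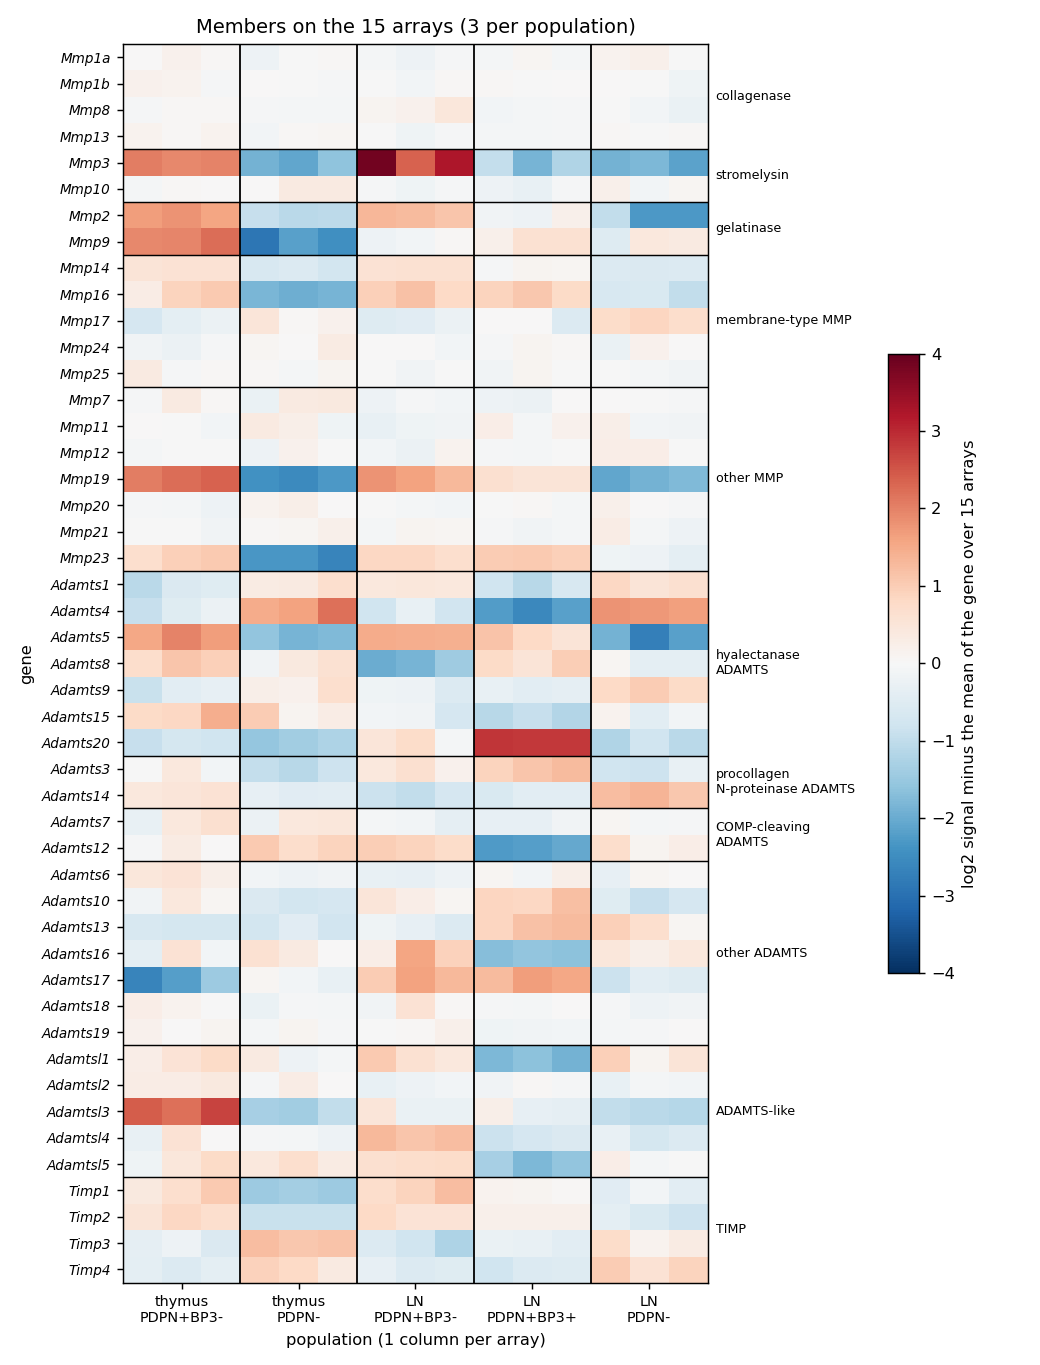
Each row is a member and each column 1 of the 15 arrays, with 3 columns per population; colour gives the log2 signal minus the mean of that gene over the 15 arrays, red above and blue below. Mmp3, Mmp19, Mmp2 and Adamts5 are red in the PDPN+BP3- columns of both tissues, Adamts20 is darkest in the lymph node PDPN+BP3+ columns, and the collagenases are pale throughout.

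PDPN+BP3- cells were compared with PDPN- cells in each tissue, with no array shared between the tissues. In the thymus 25 of 47 members were called, 17 higher and 8 lower in PDPN+BP3- cells, against 28.5% of all genes (10.3% higher and 18.2% lower). In the lymph node 26 were called, 18 higher and 8 lower, against 23.1% of all genes (13.4% higher and 9.79% lower). The median difference over the members was 0.11 in thymus and 0.02 in lymph node, against -0.05 and -0.01 over all genes. Over the 26 members left when genes with a mean below the median of the table were removed, it was 0.71 and 0.80, against -0.23 and 0.05 over all 9693 genes left. The members higher in both tissues numbered 13, which was 76.5% of those higher in thymus and 72.2% of those higher in lymph node. They were Mmp2, Mmp3, Mmp14, Mmp16, Mmp19, Mmp23, Adamts3, Adamts5, Adamts10, Adamts20, Adamtsl3, Timp1 and Timp2. Over all genes the same shares were 62.7% and 48.2%. Lower in both were 5 members, Mmp17, Adamts4, Adamts9, Timp3 and Timp4, or 62.5% of each list, against 36.0% and 67.1% over all genes. Adamts8 and Adamts14 were higher in thymus and lower in lymph node PDPN+BP3- cells, and Adamts12 and Adamts17 the reverse. Without thymus PDPN+BP3- replicate 1, 25 members were called in the thymus. Of all genes called in the thymus comparison 36.0% were higher in PDPN+BP3- cells, but 55.0% were after cyclic loess, a normalization between arrays, and 47.5% without that replicate.

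The size of the subset difference itself differed between the tissues for 15 members, against 12.7% of all genes. The lymph node value minus the thymus value was positive for 5 (8.67% of all genes) and negative for 10 (4.05% of all genes). Of all genes called here 68.2% were positive as reported, 41.5% after cyclic loess, 53.2% with each array centred on its median and 55.5% without thymus PDPN+BP3- replicate 1, so the direction over all genes depended on the scaling. The values of the 15 members follow with the genes.

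**Figure D2:**
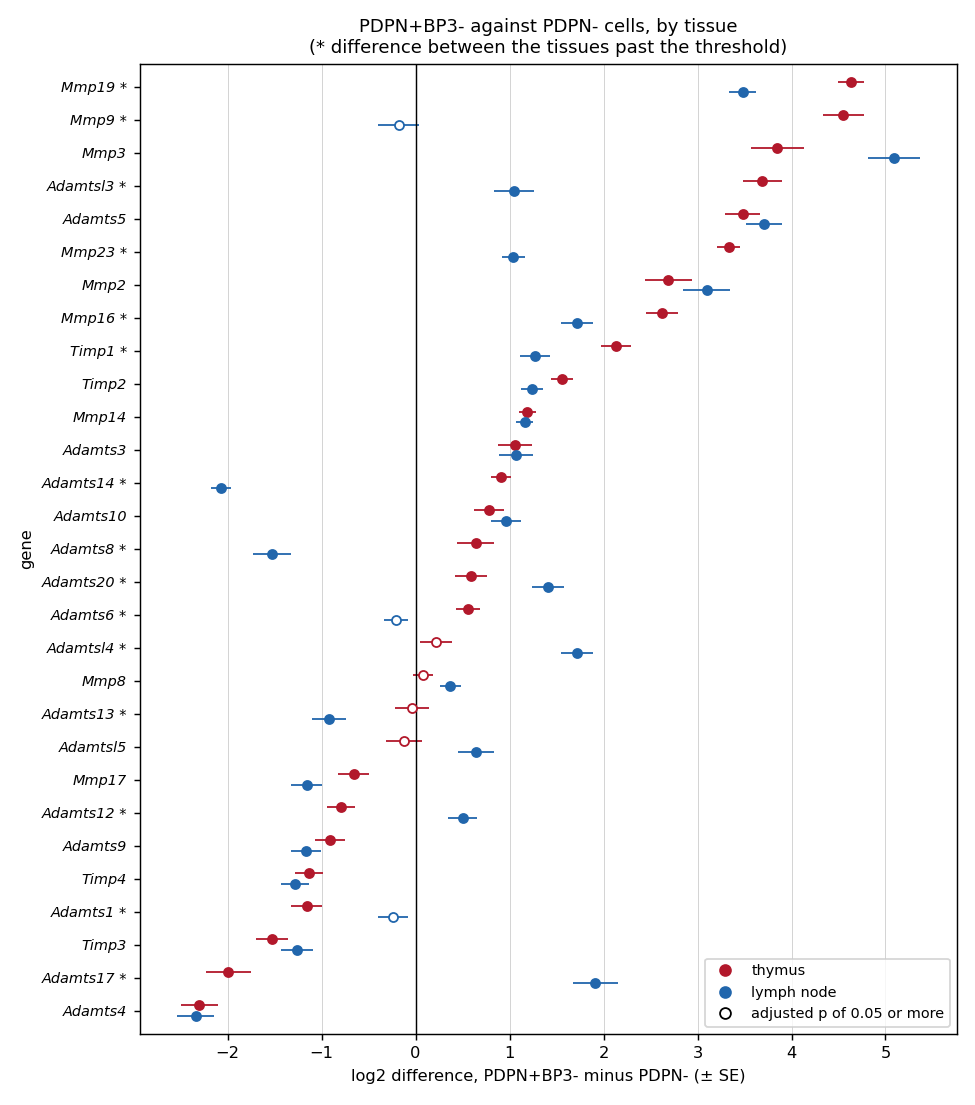
The x axis gives the log2 difference between PDPN+BP3- and PDPN- cells, ± SE, for the 29 members called in either tissue (y axis), with thymus in red and lymph node in blue; filled points passed an adjusted p of 0.05, and an asterisk marks the 15 members whose difference differed between the tissues. Mmp19 and Mmp3 lie far to the right in both tissues and Adamts4 far to the left, while Mmp9, Adamts14 and Adamts17 have tissue points far apart.

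In the lymph node, PDPN+BP3+ cells were compared with the same PDPN- arrays and with the same PDPN+BP3- arrays as above, so these calls are not independent of one another. Against PDPN- cells 26 members were called, 14 higher and 12 lower, with 27.3% of all genes called (16.1% higher and 11.2% lower). Against PDPN+BP3- cells 22 were called, 7 higher and 15 lower, with 16.2% of all genes called (8.49% higher and 7.74% lower). The members higher in PDPN+BP3+ than in PDPN+BP3- cells were Adamts3, Adamts8, Adamts10, Adamts13, Adamts14, Adamts20 and Timp3, and no Mmp gene was among them. Lower were Mmp2, Mmp3, Mmp14, Mmp19, Timp1, Timp2, 3 ADAMTS-like genes and 6 Adamts genes. The median difference was 0.07 against PDPN- cells and -0.06 against PDPN+BP3- cells, against 0.00 and 0.01 over all genes. With dim genes removed the medians over the 26 members left were 0.41 and -0.48, against 0.10 and 0.03 over all genes left. The limit of that filter given above holds here too. Of all genes called against PDPN- cells 58.9% were higher, and 47.8% with each array centred on its median.

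Lymph node and thymus were then compared within a subset. In PDPN+BP3- cells 15 members were called, 7 higher and 8 lower in the lymph node, against 17.1% of all genes (11.8% higher and 5.29% lower). Of all genes called there 69.1% were higher in the lymph node as reported, 45.7% after cyclic loess, 50.2% with centred arrays and 54.6% without thymus PDPN+BP3- replicate 1. In PDPN- cells 10 were called, 7 higher and 3 lower, against 9.61% of all genes (4.42% higher and 5.19% lower). Without lymph node PDPN- replicate 2 that count was 6. The median member difference was -0.03 in both subsets, against 0.04 and -0.01 over all genes.

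The activation set of gelatinase A stood highest in PDPN+BP3- cells of both tissues. MMP14 is the membrane-type enzyme that activates pro-MMP2, with TIMP2 as the bridge between them. Mmp14 measured 9.53, 9.58 and 9.58 in thymus PDPN+BP3- cells and 8.37, 8.47 and 8.29 in thymus PDPN- cells, and 9.60, 9.64 and 9.61 in the PDPN+BP3-, 8.97, 9.14 and 9.09 in the PDPN+BP3+ and 8.47, 8.43 and 8.46 in the PDPN- cells of the lymph node. Both PDPN+BP3- populations lay above PDPN+BP3+ cells, which lay above both PDPN- populations, without overlap between these 3 levels. The subset difference was 1.19 ± 0.09, adjusted p = 2.68e-08 in thymus and 1.16 ± 0.09, adjusted p = 4.79e-08 in lymph node, and PDPN+BP3+ cells differed from PDPN+BP3- cells by -0.55 ± 0.09, adjusted p = 3.00e-04. Mmp2, gelatinase A, gave 10.41, 10.54 and 10.31 in PDPN+BP3- and 7.81, 7.67 and 7.70 in PDPN- cells of the thymus, against 10.08, 10.01 and 9.86 in PDPN+BP3-, 8.60, 8.55 and 8.93 in PDPN+BP3+ and 7.76, 6.45 and 6.45 in PDPN- cells of the lymph node. It had the same 3 levels, and only the PDPN- populations overlapped, through replicate 1 of the lymph node. For Mmp2 the subset difference was 2.69 ± 0.25, adjusted p = 3.03e-07 in thymus and 3.10 ± 0.25, adjusted p = 7.28e-08 in lymph node, and BP3+ cells differed from BP3- cells by -1.29 ± 0.25 and from PDPN- cells by 1.81 ± 0.25. Timp2 gave 9.49, 9.82 and 9.66 in thymus PDPN+BP3- cells and 8.10, 8.10 and 8.08 in thymus PDPN- cells, and 9.77, 9.54 and 9.52 in the PDPN+BP3-, 9.20, 9.19 and 9.18 in the PDPN+BP3+ and 8.59, 8.37 and 8.14 in the PDPN- cells of the lymph node. Its subset difference was 1.56 ± 0.12, adjusted p = 3.86e-08 in thymus and 1.24 ± 0.12, adjusted p = 8.66e-07 in lymph node, with PDPN+BP3+ cells between the other lymph node populations. For none of these 3 genes did the subset difference pass the test for a difference between the tissues. The Mmp2 difference between the PDPN- populations (-0.84 ± 0.25, adjusted p = 0.0448) was not past the threshold without lymph node PDPN+BP3+ replicate 1, 2 or 3, lymph node PDPN+BP3- replicate 1, 2 or 3, lymph node PDPN- replicate 2 or 3, thymus PDPN+BP3- replicate 2 or thymus PDPN- replicate 1, 2 or 3 (difference -0.87 to -0.62, adjusted p 0.051 to 0.199), and after cyclic loess and in a fit of the compared populations only (adjusted p 0.0571 to 0.14); without lymph node PDPN- replicate 1 it was -1.28. The Timp2 difference between BP3+ and BP3- cells (-0.42 ± 0.12, adjusted p = 0.0262) was not past it without lymph node PDPN+BP3+ replicate 1, 2 or 3 or lymph node PDPN+BP3- replicate 1 (difference -0.43 to -0.34, adjusted p 0.0667 to 0.13).

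Gelatinase B behaved differently. Mmp9 gave 8.45, 8.47 and 8.77 in thymus PDPN+BP3- cells and 3.63, 4.34 and 4.07 in thymus PDPN- cells, and 6.33, 6.40 and 6.56 in the PDPN+BP3-, 6.72, 7.14 and 7.13 in the PDPN+BP3+ and 6.01, 6.93 and 6.88 in the PDPN- cells of the lymph node. The 3 thymus PDPN+BP3- arrays were the highest and the 3 thymus PDPN- arrays the lowest of the 15, and the lymph node populations lay between them. In thymus the subset difference was 4.55 ± 0.22, adjusted p = 1.09e-10, and no lymph node comparison of Mmp9 was called. The difference between the tissues in the subset difference was -4.73 ± 0.32, adjusted p = 5.67e-08, the largest of the members. Lymph node cells differed from thymus cells by -2.13 ± 0.22 among PDPN+BP3- cells and by 2.59 ± 0.22 among PDPN- cells. Neutrophils are a known source of Mmp9, and the neutrophil genes S100a8 and S100a9 averaged 6.32 and 5.93 in the lymph node PDPN+BP3- population, 3.55 and 3.35 in thymus PDPN+BP3- cells, 3.65 and 3.12 in thymus PDPN- cells, 2.13 and 2.48 in PDPN+BP3+ cells and 2.20 and 3.02 in lymph node PDPN- cells. Elane and Camp, of neutrophil precursors, averaged 2.38 to 2.78 in every population. The part of neutrophil RNA in the Mmp9 signals was not tested.

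**Figure D3:**
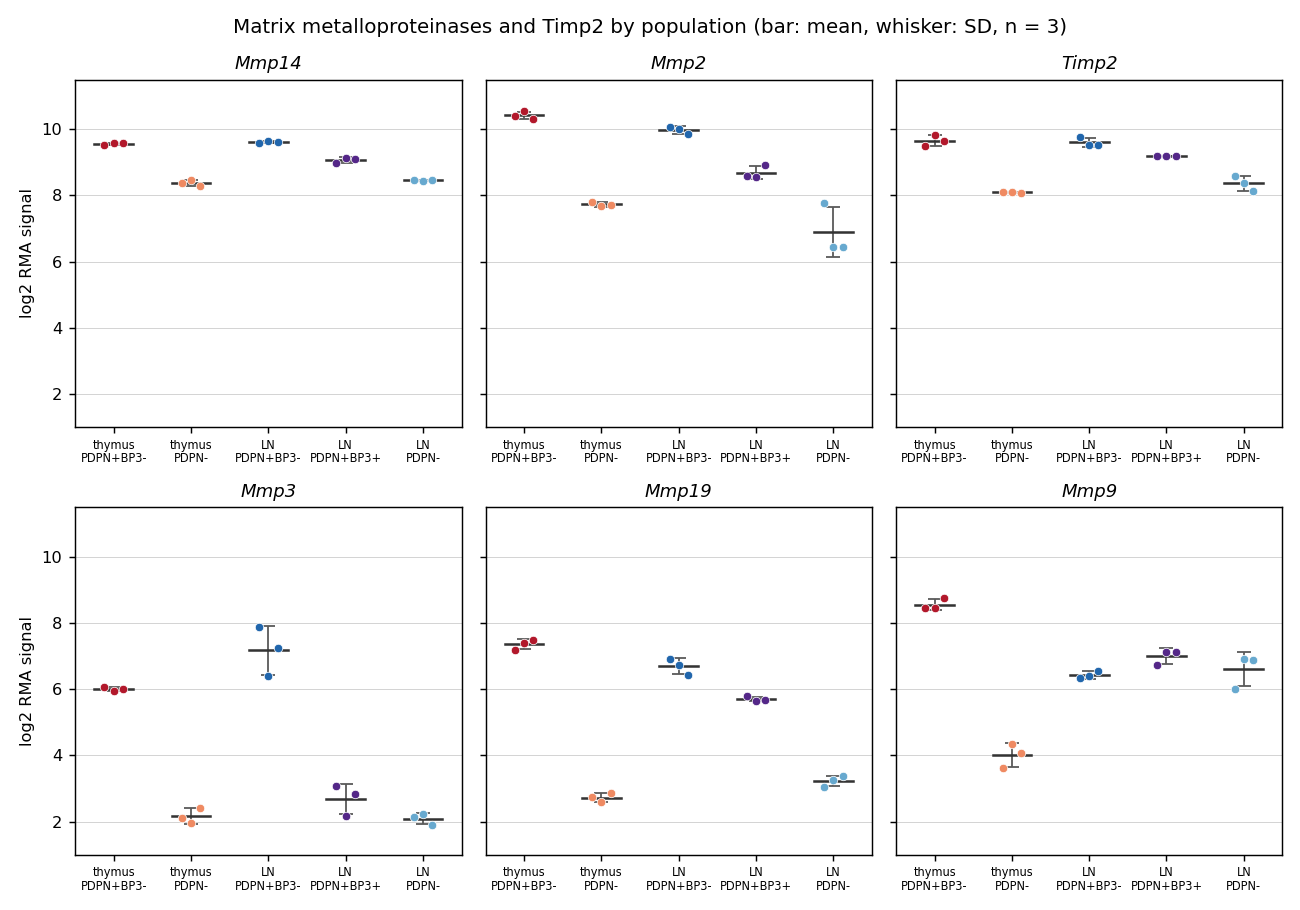
Points are the log2 RMA signals of Mmp14, Mmp2, Timp2, Mmp3, Mmp19 and Mmp9 (y axis) on the 3 arrays of each population (x axis; LN is lymph node), with the bar at the mean and whiskers of 1 SD. Mmp9 is highest in thymus PDPN+BP3- and lowest in thymus PDPN- cells, whereas the other 5 genes are high in the PDPN+BP3- cells of both tissues.

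Stromelysin 1 was a gene of PDPN+BP3- cells. Mmp3, which cleaves proteoglycans and activates other pro-MMPs, measured 6.08, 5.95 and 6.0 in PDPN+BP3- and 2.12, 1.95 and 2.42 in PDPN- cells of the thymus, against 7.88, 6.40 and 7.26 in PDPN+BP3-, 3.06, 2.17 and 2.82 in PDPN+BP3+ and 2.15, 2.23 and 1.89 in PDPN- cells of the lymph node. The 6 PDPN+BP3- arrays all lay above the 9 others, and the remaining 3 populations overlapped near the low end of the table. The subset difference was 3.85 ± 0.28, adjusted p = 1.73e-08 in thymus and 5.09 ± 0.28, adjusted p = 8.08e-10 in lymph node. BP3+ cells lay -4.50 ± 0.28, adjusted p = 6.37e-09 from BP3- cells in the lymph node, and lymph node PDPN+BP3- cells lay 1.17 ± 0.28, adjusted p = 0.00854 from those of the thymus. Mmp3 was the only one of the 9 cluster genes shown above with a signal over 2.86 on any array. The other 8 had signals of 1.46 to 2.86 on every array, Mmp10 and Mmp13 among them. The promoters of Mmp3, Mmp10 and Mmp13 all hold AP-1 and TATA letters, at different distances from the start. In Mmp13 the AP-1 letters are on the reverse strand. The part of these letters in the signals was not tested. The collagenases Mmp1a, Mmp1b, Mmp8 and Mmp13, which open the collagen triple helix, had signals of 1.46 to 2.43 on every array. The only collagenase call was Mmp8, the neutrophil collagenase, which gave 2.08, 2.16 and 2.43 in lymph node PDPN+BP3- cells and 1.97, 1.87 and 1.71 in lymph node PDPN- cells. That difference of 0.37 ± 0.11, adjusted p = 0.0172 was not past the threshold without lymph node PDPN+BP3- replicate 3 or lymph node PDPN- replicate 3 (difference 0.27 to 0.30, adjusted p 0.0859 to 0.0966), and with each array centred on its median and in a fit of the compared populations only (adjusted p 0.0689 to 0.0828). Of the neutrophil genes, S100a8 and S100a9 were highest in the same lymph node PDPN+BP3- cells, while Elane and Camp averaged 2.38 to 2.78 in every population. The part of neutrophil RNA in the Mmp8 difference was not tested.

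The remaining MMPs split into members high and low in podoplanin-positive cells. MMP19 is a secreted enzyme that cleaves basement membrane components. Mmp19 gave 7.20, 7.39 and 7.49 in thymus PDPN+BP3- cells and 2.73, 2.59 and 2.86 in thymus PDPN- cells, and 6.93, 6.74 and 6.43 in the PDPN+BP3-, 5.79, 5.66 and 5.67 in the PDPN+BP3+ and 3.05, 3.25 and 3.37 in the PDPN- cells of the lymph node. No population overlapped any other, with thymus PDPN+BP3- cells first and thymus PDPN- cells last. The subset difference was 4.63 ± 0.14, adjusted p = 2.88e-13 in thymus and 3.48 ± 0.14, adjusted p = 1.00e-11 in lymph node, a difference between the tissues of -1.16 ± 0.19, adjusted p = 6.33e-04. Mmp23, a membrane-bound MMP, measured 8.70, 8.99 and 9.07 in PDPN+BP3- and 5.69, 5.70 and 5.39 in PDPN- cells of the thymus, against 8.86, 8.84 and 8.70 in PDPN+BP3-, 9.04, 9.07 and 8.99 in PDPN+BP3+ and 7.84, 7.83 and 7.62 in PDPN- cells of the lymph node. The 3 podoplanin-positive populations lay close together at the top, lymph node PDPN- cells lay below them and thymus PDPN- cells lowest. The subset difference of 3.33 ± 0.12 in thymus exceeded that of 1.04 ± 0.12 in lymph node (difference between tissues -2.29 ± 0.17, adjusted p = 2.14e-07), and the PDPN- cells themselves differed by 2.17 ± 0.12, adjusted p = 6.36e-09. Mmp16, the membrane-type 3 enzyme, gave 4.70, 5.28 and 5.44 in thymus PDPN+BP3- cells and 2.59, 2.44 and 2.54 in thymus PDPN- cells, and 5.35, 5.59 and 5.19 in the PDPN+BP3-, 5.29, 5.48 and 5.18 in the PDPN+BP3+ and 3.77, 3.79 and 3.41 in the PDPN- cells of the lymph node. The podoplanin-positive populations overlapped one another and lay above both PDPN- populations. Its subset difference was 2.62 ± 0.17 in thymus and 1.72 ± 0.17 in lymph node. The difference between these for Mmp16 (-0.90 ± 0.24, adjusted p = 0.0231) was not past the threshold without lymph node PDPN+BP3- replicate 3, lymph node PDPN- replicate 2 or thymus PDPN- replicate 2 (difference -0.86 to -0.80, adjusted p 0.0552 to 0.0596). Mmp17, a membrane-type enzyme held by a lipid anchor, went the other way, with 2.81, 3.10 and 3.27 in PDPN+BP3- and 3.97, 3.54 and 3.65 in PDPN- cells of the thymus, against 2.98, 3.05 and 3.26 in PDPN+BP3-, 3.51, 3.52 and 2.95 in PDPN+BP3+ and 4.22, 4.36 and 4.20 in PDPN- cells of the lymph node. The 3 lymph node PDPN- arrays were the highest of the 15, and the subset difference was -0.66 ± 0.17, adjusted p = 0.00615 in thymus and -1.16 ± 0.17, adjusted p = 4.88e-05 in lymph node. The Mmp19 difference between the PDPN- populations (0.50 ± 0.14, adjusted p = 0.0277) was not past the threshold without lymph node PDPN- replicate 2 or 3 or thymus PDPN- replicate 1 or 2 (difference 0.42 to 0.50, adjusted p 0.0792 to 0.122), and with a trended robust prior (adjusted p = 0.0685). Stromelysin 3, Mmp11, had signals of 5.81 to 6.46 on all arrays and passed no test.

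The proteoglycan-cleaving ADAMTS enzymes, also called hyalectanases, did not move as 1 group. All 7 passed the F test, but in the thymus 3 were higher and 3 lower in PDPN+BP3- cells. ADAMTS4 and ADAMTS5 are the main aggrecanases, and their genes differed in opposite directions between PDPN+BP3- and PDPN- cells, while both were lower in PDPN+BP3+ than in PDPN+BP3- cells. Adamts4 measured 5.57, 6.03 and 6.28 in thymus PDPN+BP3- cells and 7.99, 8.10 and 8.70 in thymus PDPN- cells, and 5.71, 6.21 and 5.74 in the PDPN+BP3-, 4.27, 3.94 and 4.33 in the PDPN+BP3+ and 8.30, 8.23 and 8.15 in the PDPN- cells of the lymph node. The 6 PDPN- arrays lay above the 9 others, and the 3 PDPN+BP3+ arrays were the lowest. The subset difference was -2.30 ± 0.20, adjusted p = 1.69e-07 in thymus and -2.34 ± 0.20, adjusted p = 1.86e-07 in lymph node, and PDPN+BP3+ cells differed from PDPN- cells by -4.05 ± 0.20, adjusted p = 1.88e-10 and from PDPN+BP3- cells by -1.71 ± 0.20. Adamts5 gave 8.97, 9.40 and 9.10 in PDPN+BP3- and 5.84, 5.55 and 5.64 in PDPN- cells of the thymus, against 8.89, 8.87 and 8.83 in PDPN+BP3-, 8.57, 8.22 and 7.95 in PDPN+BP3+ and 5.53, 4.68 and 5.26 in PDPN- cells of the lymph node. No population overlapped another, and all 9 podoplanin-positive arrays lay above the 6 PDPN- arrays. The subset difference was 3.48 ± 0.19, adjusted p = 5.18e-10 in thymus and 3.71 ± 0.19, adjusted p = 3.44e-10 in lymph node, and BP3+ cells differed from PDPN- cells by 3.09 ± 0.19, adjusted p = 2.87e-09. Between BP3+ and BP3- cells the Adamts5 difference of -0.62 ± 0.19, adjusted p = 0.0385 was not past the threshold without lymph node PDPN+BP3+ replicate 2 or 3, lymph node PDPN+BP3- replicate 1, 2 or 3 or thymus PDPN- replicate 3 (difference -0.63 to -0.47, adjusted p 0.0514 to 0.179). Adamts1, next to Adamts5 in the genome with no protein-coding gene between, gave 8.10, 8.60 and 8.69 in thymus PDPN+BP3- cells and 9.50, 9.53 and 9.85 in thymus PDPN- cells, and 9.59, 9.63 and 9.60 in the PDPN+BP3-, 8.39, 8.08 and 8.55 in the PDPN+BP3+ and 10.01, 9.70 and 9.83 in the PDPN- cells of the lymph node. Its highest arrays were in the PDPN- populations and in lymph node PDPN+BP3- cells, and its lowest in the 2 other populations. Against PDPN- cells, Adamts1 was lower in thymus PDPN+BP3- cells (-1.16 ± 0.16, adjusted p = 3.00e-05) and in PDPN+BP3+ cells (-1.51 ± 0.16), and the subset difference differed between the tissues by 0.92 ± 0.23, adjusted p = 0.0126.

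Adamts20 marked the lymph node PDPN+BP3+ cells among these genes. ADAMTS20 and ADAMTS9 are close relatives that cleave versican. Adamts20 measured 2.63, 2.86 and 2.77 in PDPN+BP3- and 2.0, 2.16 and 2.32 in PDPN- cells of the thymus, against 4.03, 4.30 and 3.49 in PDPN+BP3-, 6.40, 6.37 and 6.39 in PDPN+BP3+ and 2.34, 2.76 and 2.48 in PDPN- cells of the lymph node. The 3 PDPN+BP3+ arrays were the highest of the 15, the lymph node PDPN+BP3- arrays came next, and the other 9 lay below them. BP3+ cells differed from PDPN- cells by 3.86 ± 0.17, adjusted p = 3.64e-11 and from BP3- cells by 2.45 ± 0.17, adjusted p = 1.89e-08. For Adamts20 the subset difference was 1.41 ± 0.17 in lymph node and 0.59 ± 0.17, adjusted p = 0.0143 in thymus; the latter was not past the threshold without thymus PDPN- replicate 1 (difference 0.51, adjusted p = 0.0682). The difference between the tissues in Adamts20 (0.82 ± 0.24, adjusted p = 0.0338) was not past it without lymph node PDPN+BP3- replicate 1 or 2, lymph node PDPN- replicate 1 or 3, thymus PDPN+BP3- replicate 1 or thymus PDPN- replicate 2 or 3 (difference 0.64 to 0.82, adjusted p 0.0635 to 0.0922), and after cyclic loess and with each array centred on its median (adjusted p 0.0601 to 0.0745). Adamts9 was higher in the PDPN- populations, with 6.20, 6.66 and 6.76 in thymus PDPN+BP3- cells and 7.33, 7.27 and 7.75 in thymus PDPN- cells, and 6.90, 6.89 and 6.53 in the PDPN+BP3-, 6.79, 6.65 and 6.73 in the PDPN+BP3+ and 7.89, 8.09 and 7.84 in the PDPN- cells of the lymph node. Both PDPN- populations lay above the 3 podoplanin-positive ones, which overlapped one another. Adamts9 differed between the subsets by -0.91 ± 0.16, adjusted p = 3.81e-04 in thymus and -1.17 ± 0.16, adjusted p = 3.69e-05 in lymph node. Of its 6 array features, 6 were called lower in thymus PDPN+BP3- cells and 3 in those of the lymph node.

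Adamts8 and Adamts15 are also neighbours in the genome, and both were higher in thymus than in lymph node PDPN+BP3- cells. Adamts8 gave 5.38, 5.78 and 5.62 in thymus PDPN+BP3- cells and 4.52, 5.07 and 5.27 in thymus PDPN- cells, and 2.69, 2.82 and 3.25 in the PDPN+BP3-, 5.45, 5.20 and 5.66 in the PDPN+BP3+ and 4.76, 4.29 and 4.29 in the PDPN- cells of the lymph node. The 3 lymph node PDPN+BP3- arrays were the lowest of the 15. BP3+ cells were higher than BP3- cells by 2.52 ± 0.20, adjusted p = 1.26e-07, and lymph node PDPN+BP3- cells were -2.67 ± 0.20, adjusted p = 1.11e-07 from their thymus counterparts. For Adamts8 the subset difference was -1.53 ± 0.20 in lymph node and 0.64 ± 0.20, adjusted p = 0.0265 in thymus, a difference between the tissues of -2.17 ± 0.29, adjusted p = 8.40e-05. In thymus that difference was not past the threshold without thymus PDPN+BP3- replicate 2 or 3 or thymus PDPN- replicate 1 (difference 0.42 to 0.63, adjusted p 0.0568 to 0.155). The second array feature of Adamts8 passed in no comparison, with differences of -0.39 to 0.30. Adamts15 gave 4.46, 4.52 and 5.14 in PDPN+BP3- and 4.70, 3.79 and 4.0 in PDPN- cells of the thymus, against 3.59, 3.56 and 3.02 in PDPN+BP3-, 2.59, 2.76 and 2.53 in PDPN+BP3+ and 3.82, 3.28 and 3.57 in PDPN- cells of the lymph node. It was lowest in PDPN+BP3+ cells, below every other array, and lymph node PDPN+BP3- cells were -1.32 ± 0.23, adjusted p = 7.75e-04 from thymus PDPN+BP3- cells. Between BP3+ and BP3- cells the Adamts15 difference (-0.76 ± 0.23, adjusted p = 0.0341) was not past the threshold without lymph node PDPN+BP3+ replicate 1, 2 or 3 or lymph node PDPN+BP3- replicate 1 or 2 (difference -0.83 to -0.66, adjusted p 0.0607 to 0.133).

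**Figure D4:**
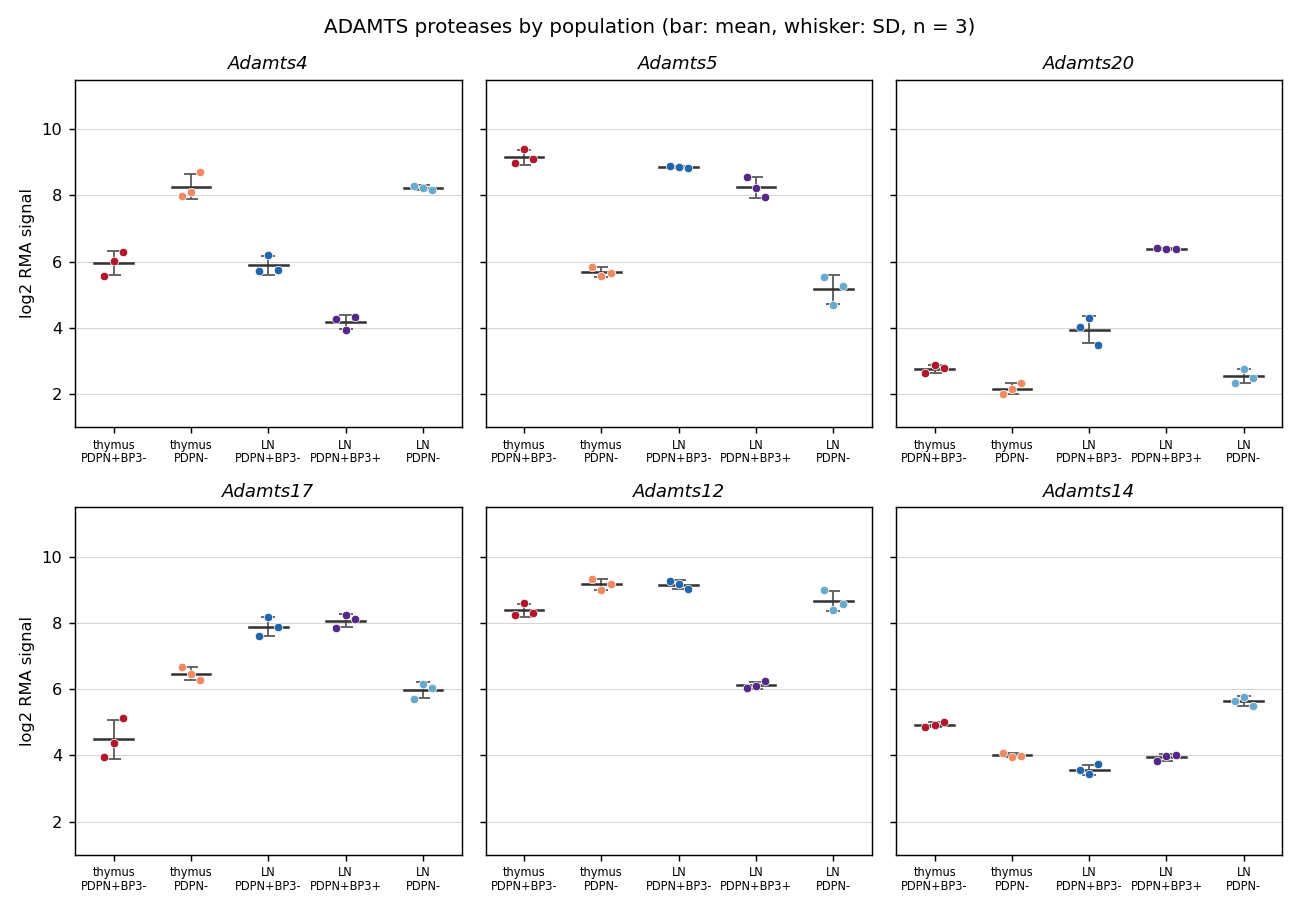
Points are the log2 RMA signals of Adamts4, Adamts5, Adamts20, Adamts17, Adamts12 and Adamts14 (y axis) on the 3 arrays of each population (x axis; LN is lymph node), with the bar at the mean and whiskers of 1 SD. Adamts4 is highest in the PDPN- cells and Adamts5 in the PDPN+BP3- cells of both tissues, Adamts20 is highest and Adamts12 lowest in lymph node PDPN+BP3+ cells, and the thymus PDPN+BP3- points are the lowest for Adamts17.

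The procollagen N-proteinases remove the amino-terminal propeptides of fibrillar procollagens, and ADAMTS3 also processes the lymphatic growth factor VEGF-C. Adamts3 measured 4.88, 5.34 and 4.79 in thymus PDPN+BP3- cells and 3.97, 3.79 and 4.08 in thymus PDPN- cells, and 5.34, 5.56 and 5.08 in the PDPN+BP3-, 5.81, 6.03 and 6.18 in the PDPN+BP3+ and 4.10, 4.07 and 4.61 in the PDPN- cells of the lymph node. PDPN+BP3+ cells were highest, the PDPN+BP3- populations of both tissues overlapped below them, and both PDPN- populations were lowest. Adamts3 differed between the subsets by 1.06 ± 0.18, adjusted p = 2.43e-04 in thymus and 1.07 ± 0.18, adjusted p = 2.52e-04 in lymph node, and 1.75 ± 0.18, adjusted p = 1.14e-06 between PDPN+BP3+ and PDPN- cells. Of its 16 array features, 15 were called higher in thymus PDPN+BP3- cells, 12 in those of the lymph node and 16 in PDPN+BP3+ cells, each against PDPN- cells. The Adamts3 difference between BP3+ and BP3- cells (0.68 ± 0.18, adjusted p = 0.0136) was not past the threshold without lymph node PDPN+BP3+ replicate 3 or lymph node PDPN+BP3- replicate 3 (difference 0.56 to 0.59, adjusted p 0.0656 to 0.0776). Adamts14 gave 4.85, 4.91 and 5.0 in PDPN+BP3- and 4.08, 3.96 and 3.99 in PDPN- cells of the thymus, against 3.55, 3.43 and 3.73 in PDPN+BP3-, 3.82, 3.99 and 4.01 in PDPN+BP3+ and 5.65, 5.78 and 5.50 in PDPN- cells of the lymph node. The 3 lymph node PDPN- arrays were the highest of the 15 and the thymus PDPN+BP3- arrays came next. PDPN+BP3- cells were thus higher than PDPN- cells in thymus (0.91 ± 0.11, adjusted p = 7.11e-06) and lower in lymph node (-2.07 ± 0.11, adjusted p = 4.34e-10), with a difference between the tissues of -2.98 ± 0.16, adjusted p = 3.37e-09. The Adamts14 difference between BP3+ and BP3- cells (0.37 ± 0.11, adjusted p = 0.0288) was not past the threshold without lymph node PDPN+BP3+ replicate 2 or 3 or lymph node PDPN+BP3- replicate 1 or 2 (difference 0.30 to 0.36, adjusted p 0.085 to 0.134), and after cyclic loess, with each array centred on its median, with dim genes removed and with a trended robust prior (adjusted p 0.0531 to 0.13).

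ADAMTS12 and ADAMTS7 cleave cartilage oligomeric matrix protein. Adamts12 measured 8.24, 8.62 and 8.30 in thymus PDPN+BP3- cells and 9.34, 9.01 and 9.18 in thymus PDPN- cells, and 9.28, 9.18 and 9.02 in the PDPN+BP3-, 6.03, 6.09 and 6.24 in the PDPN+BP3+ and 8.99, 8.40 and 8.58 in the PDPN- cells of the lymph node. The 3 PDPN+BP3+ arrays were far below the 12 others. BP3+ cells differed from BP3- cells by -3.04 ± 0.15, adjusted p = 3.83e-10 and from PDPN- cells by -2.54 ± 0.15, adjusted p = 1.66e-09. In thymus PDPN+BP3- cells were lower than PDPN- cells (-0.79 ± 0.15, adjusted p = 7.72e-04), and in lymph node they were higher (0.50 ± 0.15, adjusted p = 0.0232), with a difference between the tissues of 1.29 ± 0.21, adjusted p = 6.43e-04. The lymph node part of this Adamts12 pattern was not past the threshold without lymph node PDPN+BP3- replicate 1 or 2 or lymph node PDPN- replicate 2 or 3 (difference 0.38 to 0.49, adjusted p 0.0669 to 0.123), and in a fit of the compared populations only (adjusted p = 0.0605). Between the PDPN- populations the Adamts12 difference (-0.52 ± 0.15, adjusted p = 0.0404) was not past it without lymph node PDPN+BP3+ replicate 1 or 2, lymph node PDPN+BP3- replicate 2, lymph node PDPN- replicate 2 or 3 or thymus PDPN- replicate 1 or 3 (difference -0.52 to -0.39, adjusted p 0.0523 to 0.183), and in a fit of the compared populations only (adjusted p = 0.0925). Adamts7 had signals of 4.26 to 5.25 on all arrays and passed no test.

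Among the other ADAMTS genes, Adamts17 had the most contrasting tissue pattern. ADAMTS17 and ADAMTS10 are linked to fibrillin microfibrils. Adamts17 gave 3.95, 4.38 and 5.13 in thymus PDPN+BP3- cells and 6.67, 6.46 and 6.29 in thymus PDPN- cells, and 7.61, 8.19 and 7.87 in the PDPN+BP3-, 7.85, 8.24 and 8.13 in the PDPN+BP3+ and 5.72, 6.17 and 6.05 in the PDPN- cells of the lymph node. The lymph node PDPN+ populations were highest and overlapped, both PDPN- populations lay between, and thymus PDPN+BP3- cells were lowest. The subset difference was -1.99 ± 0.24, adjusted p = 5.95e-06 in thymus and 1.91 ± 0.24, adjusted p = 1.13e-05 in lymph node, which differed by 3.90 ± 0.33, adjusted p = 9.30e-07, the largest positive value of this test among the members. Lymph node PDPN+BP3- cells exceeded thymus PDPN+BP3- cells by 3.40 ± 0.24, adjusted p = 3.85e-08. All 5 array features of Adamts17 were called in these directions, with tissue differences in the subset difference of 1.75 to 4.01. Adamts10 gave 6.93, 7.51 and 7.17 in PDPN+BP3- and 6.50, 6.36 and 6.40 in PDPN- cells of the thymus, against 7.57, 7.34 and 7.16 in PDPN+BP3-, 7.95, 7.92 and 8.30 in PDPN+BP3+ and 6.60, 6.17 and 6.41 in PDPN- cells of the lymph node. It was highest in PDPN+BP3+ cells and lowest in both PDPN- populations, with PDPN+BP3- cells of both tissues between. Adamts10 differed between the subsets by 0.78 ± 0.16 in thymus and 0.96 ± 0.16 in lymph node, and 1.66 ± 0.16, adjusted p = 5.91e-07 between PDPN+BP3+ and PDPN- cells.

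ADAMTS13 cleaves von Willebrand factor. Adamts13 gave 2.20, 2.16 and 2.15 in thymus PDPN+BP3- cells and 2.13, 2.39 and 2.10 in thymus PDPN- cells, and 2.69, 2.52 and 2.32 in the PDPN+BP3-, 3.73, 4.04 and 4.12 in the PDPN+BP3+ and 3.80, 3.54 and 2.94 in the PDPN- cells of the lymph node. Its signals were near the median of the table in PDPN+BP3+ and PDPN- cells of the lymph node, and lower in the 3 other populations. BP3+ cells exceeded BP3- cells by 1.45 ± 0.18, adjusted p = 1.59e-05, and lymph node PDPN- cells exceeded those of the thymus by 1.22 ± 0.18, adjusted p = 2.26e-04. The Adamts13 difference between BP3+ and PDPN- cells (0.54 ± 0.18, adjusted p = 0.0351), where the arrays overlapped, was not past the threshold without lymph node PDPN+BP3+ replicate 2 or 3 or lymph node PDPN- replicate 3 (difference 0.29 to 0.50, adjusted p 0.109 to 0.194), and with each array centred on its median and in a fit of the compared populations only (adjusted p 0.0712 to 0.0965). The difference between the tissues in Adamts13 (-0.88 ± 0.25, adjusted p = 0.0319) was not past it without lymph node PDPN+BP3- replicate 2 or 3, lymph node PDPN- replicate 1 or 2, thymus PDPN+BP3- replicate 1 or thymus PDPN- replicate 1 or 3 (difference -0.88 to -0.69, adjusted p 0.057 to 0.0775). Adamts16 measured 3.96, 4.95 and 4.25 in PDPN+BP3- and 4.98, 4.71 and 4.37 in PDPN- cells of the thymus, against 4.61, 5.95 and 5.29 in PDPN+BP3-, 2.66, 2.79 and 2.71 in PDPN+BP3+ and 4.80, 4.58 and 4.78 in PDPN- cells of the lymph node. Only the PDPN+BP3+ arrays stood apart, below the 12 others, at -2.56 ± 0.28, adjusted p = 3.80e-06 from PDPN+BP3- cells and -2.0 ± 0.28 from PDPN- cells. The Adamts16 difference between the tissues in PDPN+BP3- cells (0.90 ± 0.28, adjusted p = 0.0354), where the arrays overlapped, was not past the threshold without lymph node PDPN+BP3- replicate 2 or 3 or thymus PDPN+BP3- replicate 1 or 3 (difference 0.56 to 0.89, adjusted p 0.0822 to 0.196), and after cyclic loess and in a fit of the compared populations only (adjusted p 0.0801 to 0.156). Adamts6, a relative of Adamts10, had a highest mean of 2.92, in thymus PDPN+BP3- cells, and its subset difference there was 0.56 ± 0.13, adjusted p = 0.00306. Adamts18 and Adamts19 passed no test.

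The ADAMTS-like genes, whose products lack the protease, all passed the F test. Adamtsl3 was a gene of thymus PDPN+BP3- cells. It gave 5.80, 5.59 and 6.09 in thymus PDPN+BP3- cells and 2.05, 1.97 and 2.40 in thymus PDPN- cells, and 3.86, 3.12 and 3.11 in the PDPN+BP3-, 3.62, 3.05 and 3.0 in the PDPN+BP3+ and 2.40, 2.30 and 2.24 in the PDPN- cells of the lymph node. The 3 thymus PDPN+BP3- arrays lay above the 12 others, by 3.69 ± 0.21, adjusted p = 6.29e-10 over thymus PDPN- cells, and lymph node PDPN+BP3- cells differed from them by -2.46 ± 0.21, adjusted p = 3.53e-07. The lymph node subset difference was 1.05 ± 0.21, which differed from that in thymus by -2.64 ± 0.29, adjusted p = 1.49e-05. Adamtsl4, whose product binds fibrillin-1, measured 5.18, 6.04 and 5.47 in PDPN+BP3- and 5.41, 5.37 and 5.26 in PDPN- cells of the thymus, against 6.77, 6.56 and 6.71 in PDPN+BP3-, 4.61, 4.78 and 4.89 in PDPN+BP3+ and 5.18, 4.77 and 4.92 in PDPN- cells of the lymph node. Its 3 lymph node PDPN+BP3- arrays were the highest of the 15, at 1.72 ± 0.17, adjusted p = 1.09e-06 over PDPN- cells, and BP3+ cells differed from them by -1.92 ± 0.17, adjusted p = 4.71e-07. The subset difference of Adamtsl4 was not called in thymus, and the tissues differed by 1.51 ± 0.25, adjusted p = 5.59e-04. Adamtsl5, also a microfibril-associated gene, gave 6.24, 6.87 and 7.19 in thymus PDPN+BP3- cells and 6.85, 7.07 and 6.74 in thymus PDPN- cells, and 7.05, 7.12 and 7.14 in the PDPN+BP3-, 5.09, 4.61 and 4.82 in the PDPN+BP3+ and 6.67, 6.32 and 6.41 in the PDPN- cells of the lymph node. Only its 3 PDPN+BP3+ arrays stood apart, below the 12 others, at -2.26 ± 0.19, adjusted p = 2.33e-07 from BP3- cells. The lymph node subset difference of Adamtsl5 (0.64 ± 0.19, adjusted p = 0.024) was not past the threshold without lymph node PDPN+BP3- replicate 1, 2 or 3 or lymph node PDPN- replicate 2 or 3 (difference 0.56 to 0.66, adjusted p 0.0505 to 0.0909). Adamtsl2 stayed below the median of the table and was called only between the PDPN+BP3- populations, at -0.53 ± 0.11, adjusted p = 0.00315.

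For Adamtsl1 the answer depended on the array feature. The kept feature measured 4.57, 4.85 and 5.06 in PDPN+BP3- and 4.66, 4.09 and 4.21 in PDPN- cells of the thymus, against 5.34, 4.92 and 4.73 in PDPN+BP3-, 2.49, 2.67 and 2.41 in PDPN+BP3+ and 5.26, 4.40 and 4.82 in PDPN- cells of the lymph node. Here only PDPN+BP3+ cells stood apart, at -2.47 ± 0.21, adjusted p = 2.68e-07 from PDPN+BP3- cells and -2.30 ± 0.21 from PDPN- cells, and neither subset difference was called. The other feature, with a lower mean over the 15 arrays, measured 5.32, 5.78 and 5.35 in thymus PDPN+BP3- cells and 2.55, 2.66 and 2.59 in thymus PDPN- cells, and 6.14, 5.88 and 5.55 in the PDPN+BP3-, 2.44, 2.48 and 2.60 in the PDPN+BP3+ and 3.09, 3.21 and 2.89 in the PDPN- cells of the lymph node. On that feature all 6 PDPN+BP3- arrays lay above the 9 others, and the subset difference was 2.88 ± 0.15 in thymus (adjusted p = 4.17e-10) and 2.79 ± 0.15 in lymph node (adjusted p = 9.51e-10). Both features were low in PDPN+BP3+ cells. Whether they read different transcripts of Adamtsl1 was not tested.

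The 4 TIMP genes divided into opposite pairs. Timp1 and Timp2 were highest in PDPN+BP3- cells, and Timp3 and Timp4 were highest in PDPN- cells. Timp1, a secreted inhibitor of most MMPs that acts weakly on MMP14, gave 6.92, 7.22 and 7.59 in thymus PDPN+BP3- cells and 5.08, 5.19 and 5.07 in thymus PDPN- cells, and 7.24, 7.44 and 7.77 in the PDPN+BP3-, 6.69, 6.64 and 6.60 in the PDPN+BP3+ and 6.08, 6.42 and 6.13 in the PDPN- cells of the lymph node. The PDPN+BP3- populations overlapped each other at the top, and thymus PDPN- cells were lowest. Timp1 differed between the subsets by 2.13 ± 0.16, adjusted p = 2.42e-08 in thymus and 1.27 ± 0.16, adjusted p = 1.44e-05 in lymph node, and lymph node PDPN- cells exceeded those of the thymus by 1.10 ± 0.16, adjusted p = 2.25e-04. The difference between the tissues in Timp1 (-0.86 ± 0.23, adjusted p = 0.0207) was not past the threshold without lymph node PDPN+BP3- replicate 1 or lymph node PDPN- replicate 2 (difference -0.75 to -0.74, adjusted p 0.0584 to 0.0589). Timp3 encodes an inhibitor bound to the matrix that also blocks ADAM17 and the aggrecanases. It measured 9.33, 9.49 and 9.10 in PDPN+BP3- and 10.91, 10.77 and 10.83 in PDPN- cells of the thymus, against 9.13, 8.89 and 8.45 in PDPN+BP3-, 9.43, 9.38 and 9.26 in PDPN+BP3+ and 10.42, 9.83 and 10.0 in PDPN- cells of the lymph node. The 6 PDPN- arrays lay above the 9 others, with thymus above lymph node. For Timp3 the subset difference was -1.53 ± 0.17, adjusted p = 2.91e-06 in thymus and -1.26 ± 0.17, adjusted p = 3.05e-05 in lymph node, and BP3+ cells differed from PDPN- cells by -0.73 ± 0.17. Between the PDPN- populations the Timp3 difference (-0.75 ± 0.17, adjusted p = 0.00859) was not past the threshold without lymph node PDPN- replicate 2 (difference -0.63, adjusted p = 0.0525). Between BP3+ and BP3- cells it (0.53 ± 0.17, adjusted p = 0.0433) was not past it without lymph node PDPN+BP3+ replicate 1, 2 or 3, lymph node PDPN+BP3- replicate 2 or 3, lymph node PDPN- replicate 3 or thymus PDPN- replicate 1, 2 or 3 (difference 0.35 to 0.58, adjusted p 0.0503 to 0.234). Timp4 gave 2.92, 2.78 and 2.94 in thymus PDPN+BP3- cells and 4.23, 4.12 and 3.68 in thymus PDPN- cells, and 2.99, 2.78 and 2.85 in the PDPN+BP3-, 2.51, 2.76 and 2.80 in the PDPN+BP3+ and 4.35, 3.89 and 4.22 in the PDPN- cells of the lymph node. Its signals lay near the median of the table in both PDPN- populations and below it in the 9 podoplanin-positive arrays. Timp4 differed between the subsets by -1.13 ± 0.15, adjusted p = 2.05e-05 in thymus and -1.28 ± 0.15, adjusted p = 6.26e-06 in lymph node, and -1.46 ± 0.15, adjusted p = 1.20e-06 between PDPN+BP3+ and PDPN- cells. The Adamts4 and Timp3 signals were thus both higher in PDPN- than in PDPN+BP3- cells of each tissue, whereas those of Adamts5, Mmp14, Mmp2 and Timp2 were lower.

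**Figure D5:**
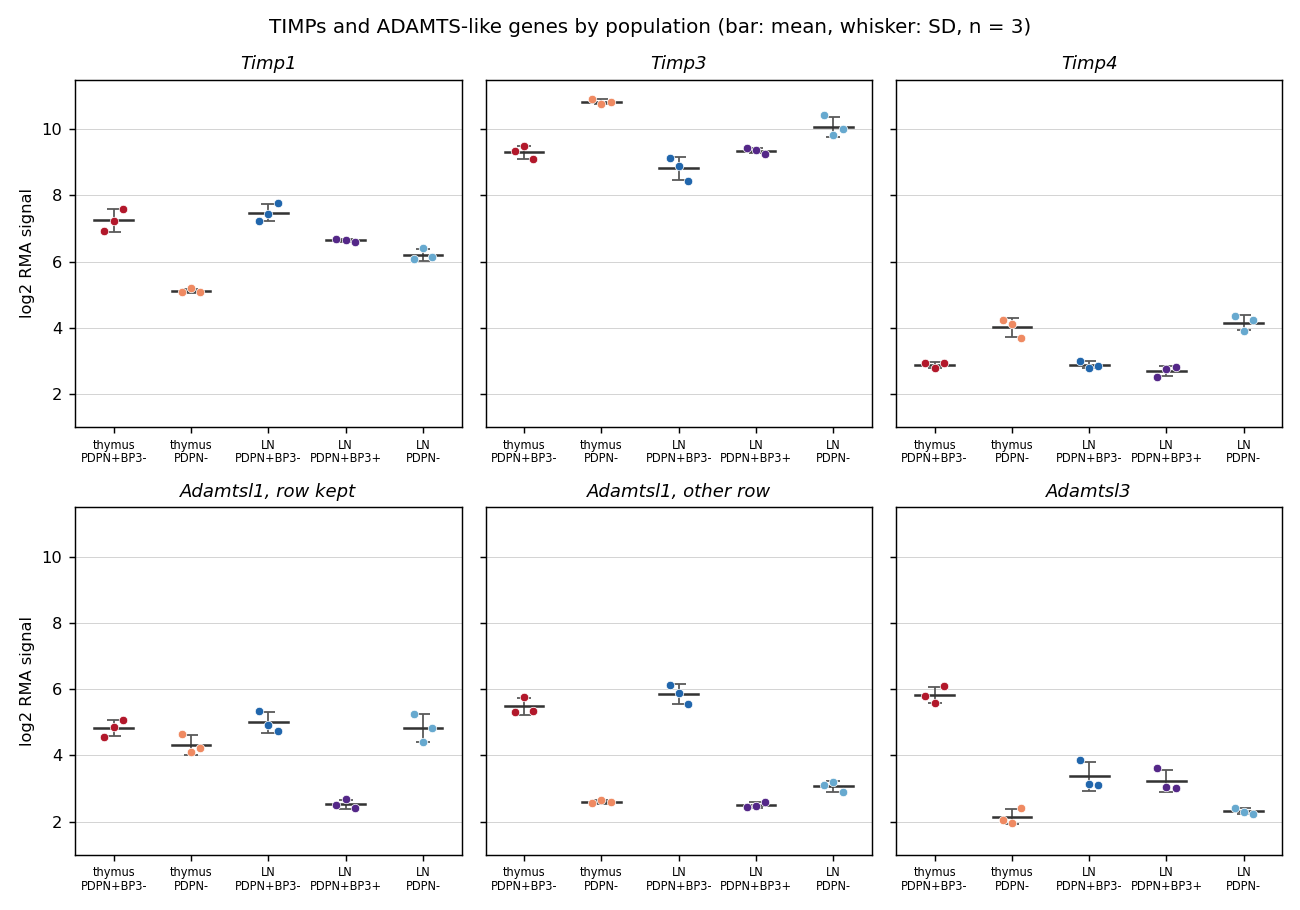
Points are the log2 RMA signals of Timp1, Timp3, Timp4, the kept and the other array feature of Adamtsl1, and Adamtsl3 (y axis) on the 3 arrays of each population (x axis; LN is lymph node), with the bar at the mean and whiskers of 1 SD. Timp1 and Timp3 have opposite orders of their population means, and the other Adamtsl1 feature is lower in PDPN- than in PDPN+BP3- cells of both tissues, a difference not called on the kept feature.

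Genes of 2 related lists were read with the same fit. The first held genes of other proteases, inhibitors and cofactors, of which 41 of 44 were measured. In PDPN+BP3- against PDPN- cells 28 of them were higher and 3 lower in thymus, and 27 higher and 4 lower in lymph node, with medians of 0.92 and 0.82. Over all genes 10.3% were higher and 18.2% lower in thymus and 13.4% and 9.79% in lymph node, with medians of -0.05 and -0.01. Examples were the secreted serine protease gene Htra3 (5.36 ± 0.15 and 3.89 ± 0.15), Serpinf1 (5.21 ± 0.11 and 2.89 ± 0.11) and the surface peptidase gene Dpp4 (4.94 ± 0.23 and 3.51 ± 0.23). In PDPN+BP3+ cells 17 were higher and 4 lower than in PDPN- cells (median 0.23), and 5 higher and 21 lower than in PDPN+BP3- cells (median -0.39). All genes gave 16.1% higher and 11.2% lower in the first of these comparisons and 8.49% and 7.74% in the second, with medians of 0.00 and 0.01. Mme, which encodes neprilysin, was higher in PDPN+BP3+ cells by 5.73 ± 0.12 against PDPN- cells, and Plat, which encodes tissue plasminogen activator, differed between PDPN+BP3+ and PDPN+BP3- cells by -3.15 ± 0.15. Against thymus, 4 were higher and 13 lower in lymph node PDPN+BP3- cells, and 4 higher and 6 lower in PDPN- cells, where all genes gave 11.8% and 5.29%, and 4.42% and 5.19%.

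The second list held substrates of the ADAMTS groups and their partners, of which 14 of 15 were measured. In thymus 8 were higher and 0 lower in PDPN+BP3- than in PDPN- cells (median 1.18), and in lymph node 6 were higher and 1 lower (median 0.27), beside the shares and medians over all genes given for the first list. Vcan, which encodes versican, a target of the hyalectanases, differed by 6.07 ± 0.20 (adjusted p = 1.23e-12) in thymus and 2.71 ± 0.20 (adjusted p = 2.88e-08) in lymph node, a difference between the tissues of -3.36 ± 0.29 (adjusted p = 8.37e-07). The procollagen gene Col1a1, whose product is trimmed by the N-proteinases, differed by 3.21 ± 0.13 in thymus and 1.43 ± 0.13 in lymph node. For the lymph node subset difference minus that of the thymus, 0 of the 14 genes were called positive and 7 negative (median -0.55), against 8.67% and 4.05% of all genes (median 0.06). After cyclic loess, where the direction over all genes turned, these counts were 0 and 8. Between PDPN+BP3+ and PDPN+BP3- cells 1 was higher and 7 were lower, against 8.49% and 7.74% of all genes, and between lymph node and thymus PDPN- cells 7 were higher and 0 lower, against 4.42% and 5.19%.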

How the data were processed

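The authors deposited 1 table of log2 RMA signals made with the Affymetrix Expression Console, per the submitters' processing notes. No version or genome build is given in the sources used here. As the log base is not named, it was taken as 2 from the size of the values. RMA scales all arrays to a common distribution of probe signals and compresses low signals, so differences near the low end understate those of the RNA. The number of arrays limits the precision. Of 24758 features, 20844 had 1 gene symbol, 1735 several and 2179 none in the array annotation, and the 73 features of the 47 members were found by symbol. Their gene identifiers matched 47 of 47 RefSeq genes. For 1230 genes with several features the one with the highest mean was kept, 2126 others were left out, and 2 features that carry a member's symbol beside other symbols were not used.

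Arrays were assigned by title. All 15 arrays entered a limma 3.58.1 fit (R 4.3.3) of 5 population means, with 10 residual and 5.5 prior degrees of freedom, tested with moderated statistics, Benjamini-Hochberg adjustment over 18718 genes and a threshold of 0.05. The script was tested on simulated data. There were 6 pairwise comparisons, their difference between tissues, and an F test. No filter on low values was applied. Members with an F test past the threshold, a highest mean above 3.8 and a span of at least 1.0 were described array by array, with all TIMP genes. From the related lists at most 4 genes a comparison were taken, by smallest adjusted p. Alternatives were cyclic loess, median centring, removal of dim genes, a trended and robust prior, the replicate number as a block, a fit of the compared populations only, the mean of all features of a gene, each array left out in turn and, added after seeing the data, each other feature tested on its own. Members, lists and rules were chosen with earlier results of these data known. Figures were drawn with matplotlib 3.10.9.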

Additional observations from a re-analysis of the deposited data

Results flagged for a closer look

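For 15 members the gap from PDPN- to PDPN+BP3- cells was not the same in lymph node as in thymus, by the test of that difference itself in limma over all 15 arrays with Benjamini-Hochberg adjustment. The same test called 12.7% of all genes. Values are lymph node minus thymus, ± SE. The subset difference turned from one direction to the other in 4 genes called in both tissues. Adamts17 had 3.90 ± 0.33 (adjusted p = 9.30e-07), with -1.99 in thymus and 1.91 in lymph node. Adamts14 had -2.98 ± 0.16 (adjusted p = 3.37e-09), with 0.91 in thymus and -2.07 in lymph node. For Adamts8 the value was -2.17 ± 0.29 (adjusted p = 8.40e-05), with 0.64 in thymus and -1.53 in lymph node, and for Adamts12 it was 1.29 ± 0.21 (adjusted p = 6.43e-04), with -0.79 in thymus and 0.50 in lymph node. In some alternatives given above, the Adamts8 difference in thymus and the Adamts12 difference in lymph node were not past the threshold. The second Adamts8 feature passed in no comparison, with 0.21 in thymus and -0.09 in lymph node.

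Smaller in the lymph node was the difference of Mmp9, at -4.73 ± 0.32 (adjusted p = 5.67e-08), of Mmp16, at -0.90 ± 0.24 (adjusted p = 0.0231), and of Mmp19, at -1.16 ± 0.19 (adjusted p = 6.33e-04). The same held for Mmp23, at -2.29 ± 0.17 (adjusted p = 2.14e-07), Adamtsl3, at -2.64 ± 0.29 (adjusted p = 1.49e-05), and Timp1, at -0.86 ± 0.23 (adjusted p = 0.0207). Adamts6 had -0.77 ± 0.18 (adjusted p = 0.0095) and was called in thymus but not in lymph node. Larger in the lymph node were the differences of Adamts20, at 0.82 ± 0.24 (adjusted p = 0.0338), and Adamtsl4, at 1.51 ± 0.25 (adjusted p = 5.59e-04). Adamts13 had -0.88 ± 0.25 (adjusted p = 0.0319), with -0.04 in thymus and -0.92 in lymph node. Adamts1 had 0.92 ± 0.23 (adjusted p = 0.0126), with -1.16 in thymus and -0.24 in lymph node. The tissue differences of Mmp16, Adamts13, Adamts20 and Timp1 were not past the threshold with some single arrays left out. That of Adamts20 was also not past it after cyclic loess and with each array centred on its median.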

How the results depend on the processing

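No difference of a member past the threshold changed sign in any alternative, but some were no longer past it. Of 139 such differences, cyclic loess ended 4 calls, median centring 4, a trended and robust prior 2, the mean of all features 0, removal of dim genes 1 of 109 and a fit of the compared populations only 6 of 124. Leaving out 1 array in turn ended 21 calls in at least 1 case. For 20 of these differences the gene had other features, each tested on its own. Of the 20, 11 were not past the threshold on at least 1 other feature, which was 22 of 103 values. The members called numbered 24 to 26 with an array left out in the thymus comparison of the subsets, 23 to 26 in that of the lymph node, 25 to 27 for PDPN+BP3+ against PDPN- cells, 16 to 24 for PDPN+BP3+ against PDPN+BP3- cells, and 14 to 17 between the PDPN+BP3- populations. They numbered 6 to 12 between the PDPN- populations (10 as reported), the lowest without lymph node PDPN- replicate 2, 12 to 16 for the difference between the tissues and 32 to 35 for the F test. Of the calls between the PDPN- populations 70.0% were higher in lymph node as reported and 81.8% after cyclic loess. Between the PDPN+BP3- populations 46.7% were higher as reported, 60.0% with dim genes removed, 37.5% after cyclic loess, 41.2% after median centring and 6 of 15 without thymus PDPN+BP3- replicate 1 or 3. Median centring moved the median of all genes by -0.125 between the PDPN+BP3- populations (from 0.04 to -0.085) and by -0.128 for the difference between the tissues (from 0.057 to -0.072). In the other 5 comparisons with median centring, and in all 7 with cyclic loess, it moved by less than 0.1. The members called in these 2 comparisons numbered 17 and 14 with centred arrays, whose differences are relative to that shift.

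Over all 30 same-numbered pairs the correlation of deviations was -0.174 to 0.288 (median -0.0095), and 6 of 15 arrays were closest to their own number. In the lymph node, same-numbered pairs of PDPN+BP3+ and PDPN+BP3- arrays gave 0.154, 0.074 and 0.064. Those of PDPN- and PDPN+BP3- arrays gave 0.288, -0.03 and 0.18, and those of PDPN- and PDPN+BP3+ arrays -0.017, 0.081 and -0.066. Same-numbered thymus pairs gave -0.161, -0.174 and -0.142. Pairing within a tissue was not tested on its own. With the replicate number as a block, 25 members were called in thymus, 26 in lymph node, 27 and 23 for the BP3+ comparisons, 16 and 9 between the tissues, 16 for the difference between the tissues and 32 in the F test, and 1 call was lost, Adamts12 between the PDPN- populations (adjusted p = 0.0518).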
